A study of Bos taurus with 88 samples.

Results

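A calf is born with almost no circulating antibody, because the bovine placenta does not pass immunoglobulin from dam to calf, and it takes up its first antibodies from colostrum through the gut wall within the first day of life. By the third day the gut has closed to intact antibody, and the leukocytes of the calf's own blood are meeting microbes and milk for the first time. RNA from whole blood holds transcripts of neutrophils, lymphocytes, monocytes and the immature red cells and reticulocytes that still carry RNA in a newborn, so a difference in a transcript can follow the number of such cells or the RNA within each cell. In bulk blood, fewer cells of a type and less RNA per cell cannot be told apart.

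The comparison described here is that of dairy with beef calves at 72 h of age, which takes 22 of the 88 blood libraries of the study. The members were chosen by the timepoint and breed on the sample labels. There were 8 dairy calves, Holstein (H), and 14 beef calves, of which 7 were labelled charolais limousin (CL) and 7 limousin friesian (LF). The breed names of the beef calves are those of their crossbred cows, and their sires were Aberdeen Angus or Charolais bulls. The H calves, on a research dairy farm, were taken from their dams soon after birth. They were given their own dam's colostrum by tube and then by teat. These feeds were set as a share of body weight that was the same for all H calves. The beef calves stayed with their dams and suckled, in a suckler herd on another farm. All cows, dairy and beef, had been vaccinated before calving. Breed, farm and manner of feeding therefore changed together between the groups and cannot be told apart. Each library is 1 blood sample of 1 calf, and the same 22 calves were also sampled at 0, 48 and 168 h. Calves are numbered within their breed, and the numbers of the 72 h samples are used at every age.

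The reads that the authors counted on genes ran from 15845098 to 34734616 per library at 72 h, with a median of 22265431.5. A gene with 3 reads in such a library had a level of 0.0864 to 0.189 CPM, a unit in which counts are divided by the size of their library. The 24616 genes are listed by Ensembl identifier with no symbol, and the reference table used here paired 0 of them with one. Genes are therefore given by identifier or by count, no pathway or cell type could be named, and the markers of blood cells could not be checked.

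Of the 22 libraries at 72 h, 3 need to be introduced before the results. In the dairy calf H6, the 10 most counted genes took 51.1% of the counts on genes, against 8.12 to 23.3% in the other dairy calves and 5.44 to 28.5% in the beef calves. Reads that mapped to several places made up 45.7% of all reads in H6, 12.2 to 24.1% in the other dairy calves and 7.25 to 24.2% in the beef calves. The dairy calf H5 stood alone on the first principal component of log2 CPM, with a score of 134.2, while the next highest score was 26.4, that of H6. The first component held 22.6% of the variance.

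**Figure D1:**
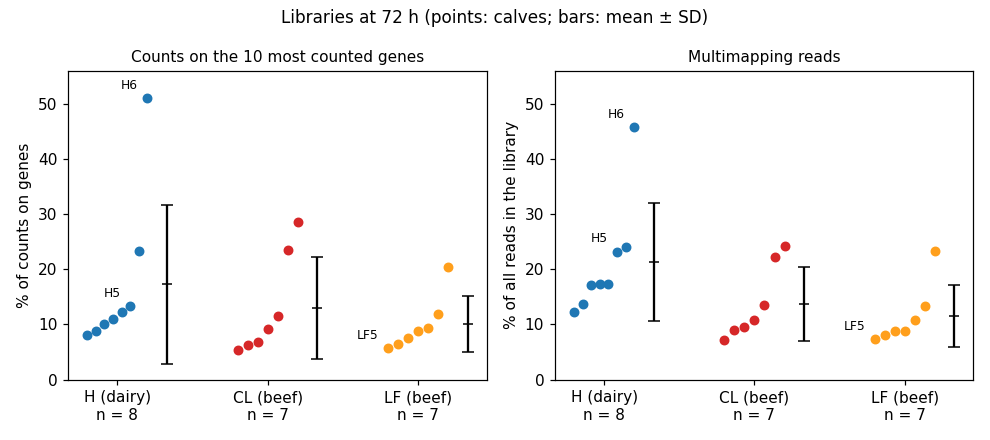
Share of gene counts taken by the 10 most counted genes (left, % of counts on genes) and share of multimapping reads (right, % of all reads) in each 72 h library, with 1 point per calf and the mean ± SD beside each group. H6 lies at 51.1% and 45.7%, above every other library on both axes, and the rest of the dairy calves overlap with the beef calves.

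Averaged over calves, multimapping reads made up 21.4% ± 10.7 (SD, n = 8) of the dairy libraries and 12.7% ± 6.06 (SD, n = 14) of the beef libraries. The difference of 8.73 percentage points had p = 0.0229 in a two-sided exact permutation test over the 319770 arrangements of calves, and 0.0458 after Benjamini-Hochberg adjustment over the 2 library measures tested. Without H5 and H6 the difference was 4.36 points, with an exact permutation p = 0.134. The share of the 10 most counted genes was 17.3% ± 14.5 (SD, n = 8) in dairy and 11.5% ± 7.30 (SD, n = 14) in beef calves, which did not pass the test (difference 5.75 points, exact permutation p = 0.275, adjusted 0.275). Neither measure had been planned, and the adjustment covers only these 2. The part that these shares play in the gene results below was not tested. Results are also given with libraries left out and with the multimapping share entered in the fit. As that share itself differed between dairy and beef calves, such a fit cannot separate it from the group.

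The third library is that labelled LF5. For each of the 88 libraries, log2 CPM over 100 genes that varied mostly between calves and little within them was correlated with the mean of the other libraries of the same calf and with the mean of every other calf. The genes were picked with the calf labels in use, so these correlations across genes are a description. In 83 libraries the calf on the label was the nearest, with r of at least 0.684, while no other calf reached more than 0.637. At 72 h the library labelled LF5 had r = 0.295 with the other libraries of LF5 and r = 0.908 with those of CL1. The reverse was seen at 168 h, where the library labelled CL1 had r = 0.217 with its own calf and r = 0.845 with LF5. At 168 h the libraries labelled CL2, CL3 and LF6 were also nearer to another calf (CL3, CL2 and CL6, with r of 0.933, 0.897 and 0.94).

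**Figure D2:**
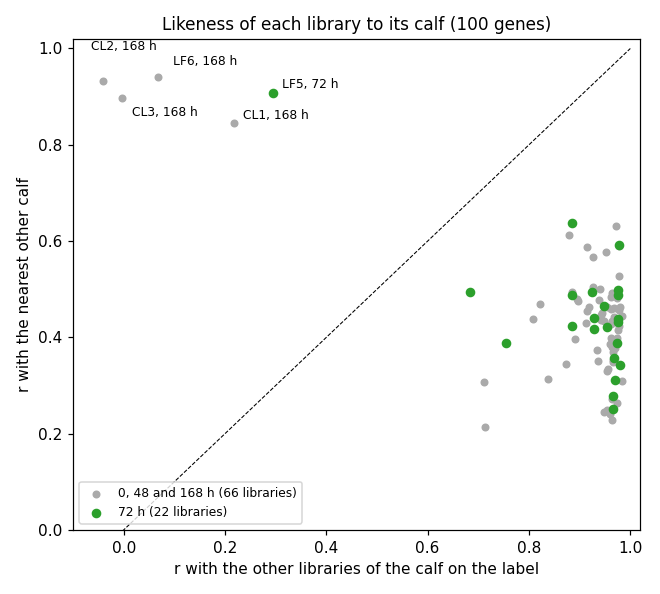
Pearson's r over 100 genes of each library with the other libraries of the calf on its label (horizontal axis) and with the nearest other calf (vertical axis). Green points are the 22 libraries at 72 h, grey points the other ages, and the dashed line marks equal r. The library labelled LF5 at 72 h and 4 libraries at 168 h lie above the line, and the remaining 83 libraries lie below it.

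Both calves concerned at 72 h are beef calves, so the library stands on the beef side under either label, but whether it is a second blood sample of CL1 and of what age cannot be told from the labels. The library was not a copy of another LF library at 72 h or of the one labelled CL1. Counts of the 70 pairs of libraries within a group differed by a chi-square of at least 62.5 per degree of freedom. The value was 119 between the libraries labelled LF5 and CL1 at 72 h. Other CL and H libraries at 72 h were not set against LF5 in this way. Results are given with all 22 libraries, and the main counts also without LF5 and without H5 and H6.

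Differentially expressed genes (DEG) between dairy and beef calves were those with a Benjamini-Hochberg adjusted p under 0.05 in edgeR's quasi-likelihood test and a fold change of at least 1.5. Of 12840 genes that passed the filter on low counts, 999 (7.78%) were DEG at 72 h. The dairy calves had 566 of them at a higher level (4.41% of genes tested) and 433 at a lower level (3.37%). Most of the changes were small. Among the higher genes, 357 differed by less than 2-fold, 187 by 2- to 4-fold and 22 by 4-fold or more, with a median of 1.83-fold. Among the lower genes, 309 differed by less than 2-fold, 11 by 4-fold or more and the others by 2- to 4-fold, with a median of 1.76-fold, which stayed at 1.76-fold with the 3 genes that had 3 counts or fewer in every dairy library set to 3 counts over that group. The median log2 fold change over all genes tested was 0.035 after TMM scaling, which centres the values.

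The 2 directions differed in the level of their genes. CPM values are not divided by gene length, so the levels serve here only to class genes by their number of reads. Of the 1930 genes tested with a mean over 100 CPM, 8.45% were DEG, of which 93.9% were higher in dairy calves and 10 genes were lower. Of the 3519 genes with 1 to 10 CPM, 390 (11.1%) were DEG, of which 150 were higher and 240 lower. Between these, in the 6392 genes with 10 to 100 CPM, 232 DEG were higher and 145 lower (5.90% of the class), and under 1 CPM 31 were higher and 38 lower. With all calves, DEG of over 100 CPM were thus nearly all higher in dairy calves, and DEG of 1 to 10 CPM were more often lower. Of the higher DEG of over 100 CPM, 99 (64.7%) were called again without H6 and 77 (50.3%) without H5 and H6.

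**Figure D3:**
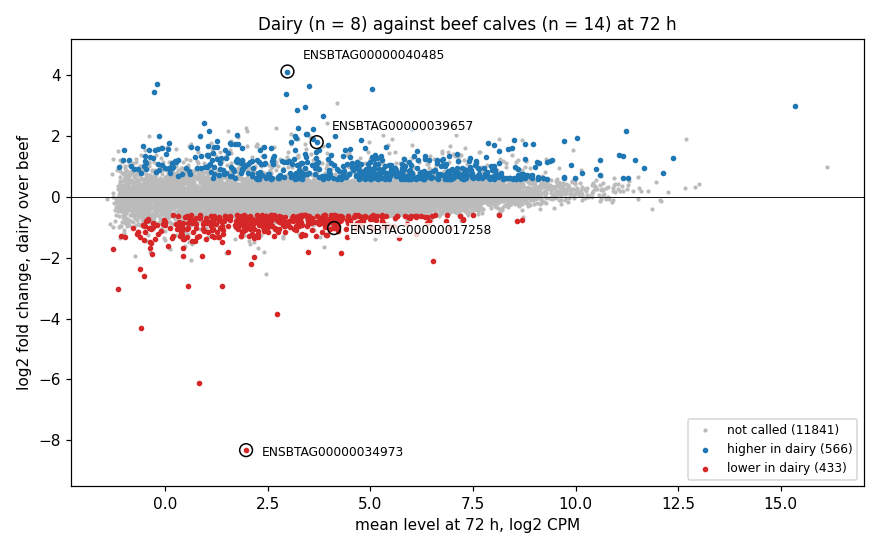
Log2 fold change of dairy (n = 8) over beef calves (n = 14) at 72 h against the mean level in log2 CPM, with 1 point per gene tested. The 566 DEG higher in dairy calves (blue) reach to the right end of the axis, the 433 lower DEG (red) lie mostly at low and middle levels, and the circled points are the 4 genes given by identifier.

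The higher genes rested on H6 more than the lower ones did. H6 had the highest level of the 8 dairy calves in 242 of the 566 higher DEG (42.8%), against 17.2% of all genes tested. H5 had the lowest level of the dairy calves in 267 of the 433 lower DEG (61.7%), against 36.5% of all genes tested. The number of lower DEG nevertheless did not fall without H5 alone, where there were 1031 DEG, 594 higher and 437 lower. Without H6 there were 777 DEG, 360 higher and 417 lower, so the share of higher genes went from 56.7% to 46.3%. Of the original DEG, 341 of the higher (60.2%) and 353 of the lower (81.5%) were called again. Without both H5 and H6 there were 786 DEG, 360 higher and 426 lower, and 549 of the original 999 (55%) were called again. The signs of the original DEG were nevertheless kept without H5 and H6, in 565 of 566 higher and in 433 of 433 lower genes, with medians of 0.69 and -0.78 on the log2 scale in place of 0.87 and -0.82. With the multimapping share of the library as a covariate there were 736 DEG, 355 higher and 381 lower. Of the original higher DEG 216 (38.2%) were called again in that fit, and of the lower 253 (58.4%).

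Without the library labelled LF5 there were 850 DEG, 513 higher and 337 lower, and 822 of the original 999 (82.3%) were called again. In all 22 fits that each left out 1 calf, 456 genes were called in the same direction every time, 249 higher and 207 lower. Those fits gave between 750 DEG (without CL6) and 1169 (without LF4).

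Few genes separated the groups completely. In 17 of the genes tested (0.132%) every dairy calf was above every beef calf, and in 21 (0.164%) every dairy calf was below. Of the DEG, 15 higher and 6 lower genes had groups that did not overlap. Without LF5 these counts over all genes were 21 (0.164%) and 21 (0.164%), and without H5 and H6 they were 39 (0.304%) and 29 (0.226%). The CPM values were the same in each count, so leaving out calves can only keep or raise the number. These rises therefore do not show a clearer separation. The 12 DEG with the largest rise and a mean of at least 1 CPM had log2 fold changes of 2.23 to 4.13. In 11 of these 12, H6 was the highest dairy calf, and in 0 of the 12 did the groups not overlap. The 12 with the largest fall had log2 fold changes of -8.32 to -1.81, and here too the groups overlapped in each of the 12.

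The DEG with the most counts illustrates the first case. It took 1.17 to 23.6% of the counts of a dairy library (median 2.63%) and 0.00234 to 6.35% of a beef library (median 0.326%), the 23.6% being H6. Its log2 fold change was 2.98 (SE 1.03, adjusted p = 0.0494 in edgeR's quasi-likelihood test). Without H6 the log2 fold change was 1.18 and the adjusted p 0.413. This gene was picked after its values were seen and is given without its identifier, since at most 2 identifiers are given in each direction.

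Those identifiers are the DEG with the largest change and the DEG with the smallest p in each direction. ENSBTAG00000039657 had the smallest p among the higher genes. Its levels at 72 h in the dairy calves were 10.2, 19.9, 20.5, 22.5, 36.8, 28.6, 27.1 and 21.8 CPM in H1 to H8. In the beef calves they ran from 3.75 to 11.7 CPM with a median of 6.67. All dairy calves but H1 were above every beef calf, and H1 was below the highest of them, CL7. The means were 23.4 ± 7.74 (SD, n = 8) and 6.80 ± 2.43 (SD, n = 14) CPM, with a log2 fold change of 1.80 (SE 0.22, adjusted p = 0.000219 in edgeR's quasi-likelihood test). It was also a DEG against CL alone (log2 fold change 1.85, adjusted p = 0.00497) and against LF alone (1.77, adjusted p = 0.0145), 2 comparisons that share the H calves. Left without H6, ENSBTAG00000039657 had a log2 fold change of 1.75 (adjusted p = 0.000386). It was called in each of the 33 alternatives that did not test against the fold change itself. Among these, leaving out CL3 and leaving out the library whose label ends in R are the same fit.

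ENSBTAG00000040485 had the largest rise. The dairy calves H1 to H8 had 0.922, 3.62, 7.36, 2.49, 7.47, 132.5, 3.43 and 5.33 CPM. The beef calves ran from 0.0689 to 10.1 CPM with a median of 0.357, and the 10.1 was LF7, with the next highest LF calf at 0.9 and the highest CL calf at 1.54. H6 was thus far above the next dairy calf, H5, and LF7 lay above every dairy calf but H6. The log2 fold change was 4.13 (SE 0.93, adjusted p = 0.00622 in edgeR's quasi-likelihood test). Without H6 it was 1.90 (SE 0.74) with an adjusted p of 0.0892, without H5 and H6 it was 1.72 (adjusted p = 0.134), and with the multimapping share as a covariate 1.23 (adjusted p = 0.143). In edgeR the call for ENSBTAG00000040485 therefore rested on H6, whose levels at 0, 48, 72 and 168 h were 50.7, 378.2, 132.5 and 2.22 CPM. DESeq2 with all calves gave a smaller log2 fold change of 2.79 with a lower adjusted p of 1.31e-05, and it was not run without H6. Without LF7 the log2 fold change in edgeR was 5.33 (adjusted p = 0.000815). With all calves, the log2 fold change against CL alone was 4.99 (adjusted p = 0.0162 in edgeR's quasi-likelihood test). Against LF alone it was 3.59 and did not pass (adjusted p = 0.169).

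ENSBTAG00000034973 had the largest fall. In the dairy calves it had 1 count in H2, 1 in H6 and 0 in the other 6. In CL1 to CL7 its level was 9.09, 7.61, 7.00, 0.0484, 7.93, 10.03 and 0 CPM, of which the 0.0484 was 1 count. In LF1 to LF7 it was 6.78, 0, 6.95, 0, 10.03, 8.62 and 9.70 CPM. The beef calves fell apart into 10 libraries with 149 to 351 counts and 4 with 0 or 1 count, and the latter overlapped with the dairy calves. Over the pooled counts, 2166 in beef and 2 in dairy calves, the beef level was 451 times the dairy level, with an exact 95% interval of 124.7 to 3728 that covers counting error only. The fitted log2 fold change of -8.32 (SE 1.46, adjusted p = 0.00155 in edgeR's quasi-likelihood test) depends on the prior count and is not a bound. It was one of the 10 genes that passed in a test of edgeR against a 1.5-fold change (adjusted p = 0.0182). ENSBTAG00000034973 passed the filter on low counts only through the 10 beef libraries with 149 to 351 counts. In the comparisons against CL alone and against LF alone it was not tested.

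The presence of ENSBTAG00000034973 went with the calf and not with the age. CL4, CL7, LF2 and LF4 had 2 counts or fewer at 0, 48, 72 and 168 h, and so did all 8 dairy calves. CL2, CL3, CL5, CL6, LF1, LF3, LF6 and LF7 had at least 122 counts at every age. The exceptions were LF5, with 2, 0, 291 and 1 counts at 0, 48, 72 and 168 h, and CL1, with 289, 264, 223 and 0. These exceptions are the libraries labelled LF5 at 72 h and CL1 at 168 h, the same that resembled each other's calf over the 100 genes, which did not include ENSBTAG00000034973. Pooled over calves, it had 2754 counts in beef and 6 in dairy calves at 0 h, 2779 and 6 at 48 h, and 2645 and 6 at 168 h.

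ENSBTAG00000017258 had the smallest p among the lower genes. The dairy calves H1 to H8 had 10.5, 9.70, 11.7, 9.56, 8.07, 15.03, 7.38 and 11.04 CPM, and the beef calves ran from 14.2 to 33.5 CPM with a median of 21.1. Only H6, at 15.03 CPM, was above the lowest beef calf, LF1. The means were 10.4 ± 2.37 (SD, n = 8) and 21.2 ± 4.94 (SD, n = 14) CPM, with a log2 fold change of -1.02 (SE 0.15, adjusted p = 0.000299 in edgeR's quasi-likelihood test). Without LF5 the value was -1.05 (adjusted p = 0.000256). ENSBTAG00000017258 was near the dairy level in beef calves at birth, with 13.1 ± 2.49 CPM (SD, n = 14) at 0 h against 10.1 ± 2.64 (SD, n = 8) in dairy calves. In beef calves it stood at 22.6 ± 4.36 CPM at 48 h and 22.02 ± 4.64 at 168 h, and in dairy calves at 12.01 ± 2.01 and 11.3 ± 2.72. Its log2 fold change between dairy and beef was -0.37 at 0 h (adjusted p = 0.0406), which was under the fold change threshold, -0.89 at 48 h (adjusted p = 8.36e-05) and -0.97 at 168 h (adjusted p = 0.000214). The change of -0.67 from 0 h to 72 h did not pass the test of the interaction of group and age (adjusted p = 0.295).

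**Figure D4:**
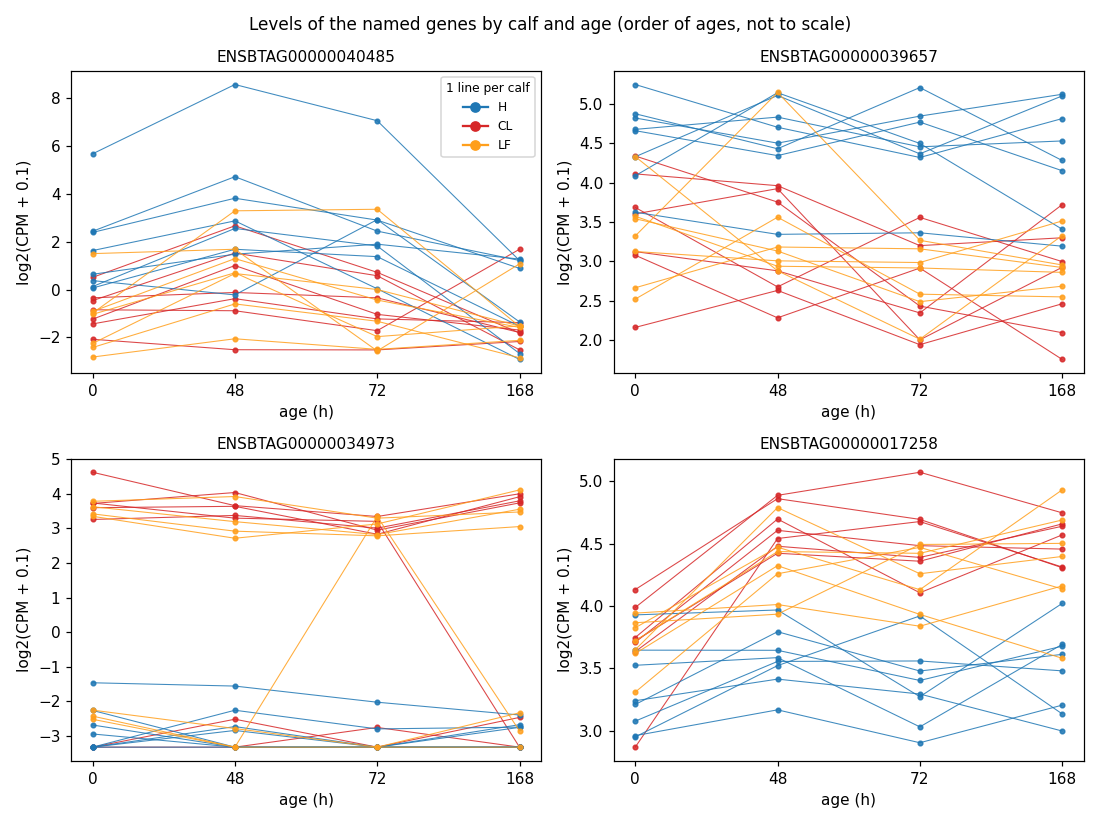
Levels of the 4 genes given by identifier in every calf at 0, 48, 72 and 168 h, as log2(CPM + 0.1), with 1 line per calf (blue H, red CL, orange LF). ENSBTAG00000034973 is near or at 0 counts in every dairy library and in 4 to 6 of the 14 beef libraries of an age, and the lines that cross between its levels belong to LF5 and CL1. The highest line of ENSBTAG00000040485 is H6.

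To see whether the difference lay with both beef groups, the dairy calves were set against each alone. Against CL, 918 of 12628 genes (7.27%) were DEG, 512 higher and 406 lower in dairy calves. Against LF, 50 of 12624 genes (0.396%) were DEG, 43 higher and 7 lower. The count against LF was 428 with DESeq2, 184 when all 3 breeds shared the fit and 95 without H5 and H6. It moved with single calves, to 88 higher and 21 lower genes without LF1, and in all to 21 without LF2, 10 without LF3, 98 without LF4, 22 without LF5, 8 without LF6, 20 without LF7, 22 without H4, 155 without H5, 30 without H6 and 25 without H7. The count against CL fell to 577 without CL2, 499 without CL3, 421 without CL6 and 597 without H4. Between CL and LF themselves, 0 of 12681 genes (0%) passed in edgeR, with 563 at an unadjusted p under 0.05, and DESeq2 called 2. A difference between the beef groups in their distance from the dairy calves was therefore not shown by a test of CL against LF.

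Both beef groups lay on the same side of the dairy mean in 566 of the 566 higher DEG, in 432 of the 433 lower and in 10782 of all 12840 genes tested. The DEG were chosen on the pooled beef difference, which nearly fixes their counts. The median difference of log2 CPM among the higher DEG was 0.84 between H and CL and 0.73 between H and LF. Among the lower DEG it was -0.92 and -0.74. The LF mean was nearer to the dairy mean than the CL mean in 378 of the higher DEG (66.8%) and in 359 of the lower (82.9%), and in 62.6% of all genes tested. Without the library labelled LF5 these shares were 67.7%, 90.8% and 62.7%.

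The same calves were compared at the other ages. Dairy and beef calves differed by 2338 DEG at 0 h (18.1% of 12912 genes, with 11.3% higher and 6.82% lower), by 1606 at 48 h (12.4% of 12965, with 8.88% higher and 3.51% lower) and by 1180 at 168 h (9.1% of 12965, with 6.01% higher and 3.09% lower). The total and the number of higher DEG were lowest at 72 h, and the number of lower DEG was lowest at 168 h (401 against 433 at 72 h). Counts depend on the spread among calves at each age, and their difference was not tested. Of the 566 genes higher in dairy calves at 72 h, 417 (73.7%) were also called higher at 0 h, 376 (66.4%) at 48 h and 297 (52.5%) at 168 h. These make up 29.9%, 33.4% and 38.6% of the higher DEG of those ages that were tested at 72 h. Of the 433 lower genes, 242 (55.9%) were called lower at 0 h, 173 (39.95%) at 48 h and 24.9% at 168 h, which are 28.6%, 39.1% and 28.6% of the lower DEG of those ages. Without the 4 libraries that resembled another calf at 168 h, the numbers called at that age were 332 (58.7%) of the higher and 110 (25.4%) of the lower genes. In the opposite direction 2 of the 999 genes were called at 0 h, 0 at 48 h and 0 at 168 h.

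Across all ages, 289 of the 999 genes (28.9%) were called in the same direction at 0, 48, 72 and 168 h, 217 higher and 72 lower. Another 247 (24.7%) were called in the same direction at no other age, 91 higher and 156 lower. Since the ages share their calves, a difference that belongs to a calf recurs in each of them. At 0, 48, 72 and 168 h the higher genes had median log2 fold changes of 0.84, 0.84, 0.87 and 0.70, and the lower genes had -0.68, -0.57, -0.82 and -0.39. The genes were chosen on the 72 h values, so the size at 72 h is a description.

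**Figure D5:**
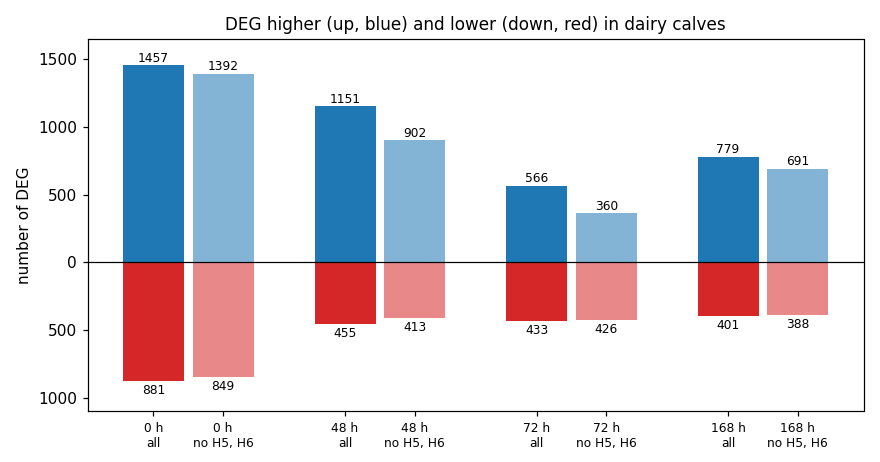
Number of DEG between dairy and beef calves at each age, higher in dairy above the line and lower below it, with all 22 calves (full colour) and without H5 and H6 (pale). At 72 h the higher DEG go from 566 to 360 without the 2 calves and the lower from 433 to 426.

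Whether the difference between dairy and beef calves at 72 h was another than at the other ages was tested as the interaction of group and age. Against 0 h, 7 of 13338 genes (0.0525%) passed in edgeR's quasi-likelihood test, and 3 (0.0225%) with the calf as a block, of which 2 were among the 7. The 7 genes had interactions of -2.62 to 3.68 on the log2 scale with adjusted p between 0.034 and 0.0413. All 7 were DEG at 0 h and 1 was a DEG at 72 h, and among the 5 tested at both ages the difference had the opposite sign at 72 h in 5. Without H5 and H6 the count was 11, with the block as well 22, and DESeq2 without the block called 32. Without the library labelled LF5 it was 5, with and without the block. Against 48 h, 0 of 13299 genes (0%) passed in edgeR, with 974 at an unadjusted p under 0.05, and DESeq2 also called 0. Against 168 h, 0 of 13298 genes (0%) passed in edgeR, with 1811 at an unadjusted p under 0.05, and DESeq2 called 10. A gene called at 72 h and not at another age is thus, with few exceptions, not shown to differ between those ages.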

How the data were processed

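Whole blood RNA of 22 calves was sequenced by the authors as single-end TruSeq libraries. The submitters' processing notes and the methods of the study name cutadapt, FastQC, STAR and DESeq2 and the UMD3.1 cattle genome. The authors deposited raw whole-number counts per Ensembl gene for each sample, with separate numbers of unmapped, multimapping and unassigned reads, which were kept out of library sizes. Reads with several mapping positions are left out by that counting, which can lower the values of paralogs. Counts without regard to strand were used, since 50.5% and 49.8% fell on each strand.

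Counts were fitted with edgeR 4.0.16 in R 4.3.3 (default filter, TMM scaling, robust quasi-likelihood test), with only the groups compared in the fit. DEG passed an adjusted p of 0.05 and changed by 1.5-fold or more. Adjusted p-values were taken over all genes tested. DESeq2 1.42.0 was an alternative, as were RLE scaling, other filters, all 88 samples in the fit, and each calf left out in turn. SE is the log2 fold change over the square root of F. CPM were scaled by TMM within an age, and log2 CPM used a prior count of 2. Exact tests used scipy in Python. Code was tested on simulated data.

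Identifiers were named for the largest change and the smallest p in each direction among DEG with a mean of at least 1 CPM. The comparison, the lists and the alternatives were chosen with earlier results of these data known, and the removal of H5, H6, LF5 and the 4 libraries at 168 h, and the check of calves, were added after the values were seen. The tests of the library shares and the fit with the multimapping share as a covariate were not planned either. Lists by gene symbol, the globin share and the fit without globin genes were not run, because identifiers are not paired with symbols here. Dairy and beef calves are different animals, so no pairing exists at 72 h. For the interactions the tag numbers on the labels pair each calf with itself. Deviations of 72 h libraries from their group means correlated with those of the same calf by a mean r of 0.364 at 0 h, 0.511 at 48 h and 0.296 at 168 h, and above 0.1 in 21, 21 and 19 of 22 calves.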

Additional observations from a re-analysis of the deposited data

Results flagged for a closer look

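Within each group of 7 or 8 calves at 72 h, the highest and lowest library was compared with its nearest neighbour by Dixon's test, over 24 groups of values. Chance alone flags about 1 in 20 groups of independent, normally distributed values. The groups here were not of that kind, since the genes were picked on the 72 h values and the library measures are linked. The number of flags is therefore a description and is not set against that rate. The dairy calf H6 stood apart in 5 of them. It had 51.1% of its counts on the 10 most counted genes (next dairy calf 23.3%), 45.7% multimapping reads (next 24.1%) and a TMM scaling factor of 0.433 (next 0.86). It also had 132.5 CPM of ENSBTAG00000040485 (next 7.47) and 0.146 CPM of ENSBTAG00000034973 (next 0.0441), of which the latter is 1 count.

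Among the LF calves, LF7 stood apart in 3. Its share of the 10 most counted genes was 20.5% (next 11.9%), its multimapping share was 23.4% (next 13.4%), and its level of ENSBTAG00000040485 was 10.1 CPM (next 0.9). Of the libraries with both shares near those of LF7, CL4 (23.5% and 24.2%) had 0.387 CPM of ENSBTAG00000040485 and CL5 (28.5% and 22.2%) had 1.54 CPM. H7 (23.3% and 24.1%) had 3.43 CPM, which was above every beef calf but LF7. Whether the level of this gene goes with these shares was not tested. With the multimapping share as a covariate, the log2 fold change of ENSBTAG00000040485 between dairy and beef calves was 1.23 in place of 4.13 (adjusted p = 0.143 in edgeR's quasi-likelihood test).

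The difference between dairy and beef calves passed the interaction test of edgeR between 0 h and 72 h in 7 genes. Blocking on the calf left 3 genes past the threshold, 2 of them among these 7.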

How the results depend on the processing

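The number of DEG at 72 h stayed within 1.5 times of 999 under every alternative but those that changed the fold change threshold. Without a threshold 2198 genes passed, and 10 when the test itself was against a 1.5-fold change. Leaving out each calf gave 750 to 1169. The share of higher genes, 56.7%, ran from 54.2% to 62.7% in those fits apart from 46.3% without H6, and it was 50.4% when all 88 samples and the L number on the labels were fitted and 48.2% with the multimapping share as a covariate. Against CL, leaving out a calf gave 421 to 1266 DEG, and against LF 8 to 155. Against LF, DESeq2 gave 428, the fit of 3 breeds 184, and the fit without H5 and H6 95. Between CL and LF, DESeq2 called 2.

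For the interaction against 0 h, the calf as a block gave 3 genes in place of 7. Without H5 and H6 there were 11, and 22 with the block, and DESeq2 gave 32. For 168 h DESeq2 gave 10. The block changed no other count of interaction genes from 0 with all calves in the fit. The difference in multimapping share was 4.36 points without H5 and H6. The cause of these changes was not tested. Among the 4 identifiers no direction turned in the fits that tested them. The filter that asked for at least 10 counts in every sample removed ENSBTAG00000034973 and ENSBTAG00000040485, so neither could be called there. In the other fits, calls were lost for ENSBTAG00000040485 without H6, without H5 and H6, and with the multimapping covariate. In edgeR's test against the 1.5-fold change, they were lost for ENSBTAG00000017258 (adjusted p = 0.209) and ENSBTAG00000040485 (adjusted p = 0.153). The fit without globin genes, the globin share and the gene lists were not run.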

Other observations

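Some DEG at 72 h stood next to each other in the order of the deposited rows, whose meaning is not stated. Among genes tested, the next one was also a DEG in the same direction for 68 of the 566 higher DEG (12.01%) and for 39 of the 433 lower (9.01%), while 4.41% and 3.37% of all genes tested were higher and lower DEG. Whether neighbouring rows share reads, as overlapping or duplicated genes can, was not tested.

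Of the lower DEG, 3 had 3 counts or fewer in all 8 dairy libraries, ENSBTAG00000034973 among them. In 0 of the higher DEG did all 14 beef libraries have 3 counts or fewer.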
